A study of Mus musculus with 6 samples.

Results

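Accessible sites in mouse blood stem cells are unevenly spread along the chromosomes, and 3780 of the 42632 peaks measured (8.87%) lay in 493 dense clusters limited in gene ends. A cluster was found from peak positions alone. Peaks on a chromosome were chained where the midpoint of one lay at most 12.5 kb from the midpoint of the next, which gave 25454 chains, single peaks included. Chains of 6 or more peaks were kept if no more than 1 peak per 3 had its midpoint within 1 kb of the start or end of a protein-coding gene. A peak that close to a gene is called a gene-end peak here. Of 630 chains with 6 or more peaks, 137 were set aside as too rich in gene ends, and these 1138 peaks serve as a comparison. On the threshold of size, 206 clusters had exactly 6 peaks, and 304 chains of 5 peaks that met the limit on gene ends lay just outside. On the threshold of gene ends, 60 clusters had exactly 1 gene-end peak per 3.

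The libraries came from long-term haematopoietic stem cells (LT-HSCs), the rare bone marrow cells that renew the blood system for life. Open chromatin was mapped by ATAC-seq, which uses a transposase to cut and tag the DNA it can reach. The marrow donors were C57BL/6 mice between 10 and 16 weeks old. Sorted cells lacked lineage markers, CD34 and Flt3 and carried Sca1 and cKit. In the unconfined group (n = 3 libraries) they stayed for 16 h in a serum-supplemented salt solution at low oxygen. In the confined group (n = 3) they spent 13 h in the same solution, 0.5 h attaching to glass coated with fibronectin and 2 h under a ceiling held at 5 µm by pillars, and were then released with a dissociation reagent. Attachment, confinement and release always went together, so their effects cannot be told apart. The sources call the samples biological replicates, number them by experimental batch and do not say how many animals each holds, so p-values measure the spread between these samples, which may be technical. The comparison asks which accessible sites of a stem cell differ after it has been squeezed.

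Accessible sites away from gene starts are often enhancers, stretches of DNA to which transcription factors bind and from which they act on a promoter at a distance. Where a gene is important to the identity of a cell, many such sites often lie close together in and around it, and the densest groups have been called super-enhancers or stretch enhancers. In blood stem cells, genes of transcription factors such as Gata2, Lyl1 and Spi1 are known for such neighbourhoods. Accessibility alone does not show that a site is an enhancer, and no enhancer assay or histone mark was used here.

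Member peaks overlapped 637 promoter windows, of which 4 are shown. They were picked by hand from the clusters named below and stand for no group. In each, the highest peak of the cluster in unconfined cells lies on the window or reaches into it, but gene-end peaks led 120 of the 493 clusters. At all 4 the cluster or its leading peak fell in confined cells. A leading peak is chosen for its level in unconfined cells, so its fall is a description. Each window was taken from RefSeq (GRCm38.p6, the assembly also called mm10) and runs from 250 bases before to 50 bases after a gene's start. Lyl1 encodes a basic helix-loop-helix factor of stem cells, Junb a subunit of the AP-1 factor, Dusp2 a phosphatase that inactivates MAP kinases, and Mnt a partner of MAX that represses MYC targets. The windows are at chr8:84701207-84701506 on the plus strand for Lyl1, chr8:84978699-84978998 on the minus strand for Junb, chr2:127335909-127336208 on the plus strand for Dusp2 and chr11:74830674-74830973 on the plus strand for Mnt. The first 3 lie wholly inside their peak, while the Mnt window shares only its first 121 bases with its peak. Capitals mark matches to any of 6 letter patterns searched on both strands: AGATAA (bound by GATA factors), CCGGAA (ETS factors), GGGCGG (the GC box), CAGCTG (an E box), TGACGTCA (the cyclic AMP response element) and TGANTCA (AP-1).
Lyl1: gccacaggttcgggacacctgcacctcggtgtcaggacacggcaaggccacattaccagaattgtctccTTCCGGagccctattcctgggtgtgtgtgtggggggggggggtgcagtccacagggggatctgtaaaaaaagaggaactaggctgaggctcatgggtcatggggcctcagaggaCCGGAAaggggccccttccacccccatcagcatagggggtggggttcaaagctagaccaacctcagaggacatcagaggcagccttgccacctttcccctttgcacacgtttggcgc
Junb: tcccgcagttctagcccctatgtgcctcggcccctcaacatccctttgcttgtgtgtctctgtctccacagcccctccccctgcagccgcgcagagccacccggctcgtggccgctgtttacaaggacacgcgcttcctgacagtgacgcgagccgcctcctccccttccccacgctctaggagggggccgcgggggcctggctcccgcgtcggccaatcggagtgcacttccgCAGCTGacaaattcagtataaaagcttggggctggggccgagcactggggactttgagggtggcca
Dusp2: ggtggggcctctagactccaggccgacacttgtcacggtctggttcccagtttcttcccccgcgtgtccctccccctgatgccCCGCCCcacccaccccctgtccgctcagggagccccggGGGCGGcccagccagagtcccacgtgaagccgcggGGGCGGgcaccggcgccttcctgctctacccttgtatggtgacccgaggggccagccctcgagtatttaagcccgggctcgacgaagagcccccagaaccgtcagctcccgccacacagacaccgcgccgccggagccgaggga
Mnt: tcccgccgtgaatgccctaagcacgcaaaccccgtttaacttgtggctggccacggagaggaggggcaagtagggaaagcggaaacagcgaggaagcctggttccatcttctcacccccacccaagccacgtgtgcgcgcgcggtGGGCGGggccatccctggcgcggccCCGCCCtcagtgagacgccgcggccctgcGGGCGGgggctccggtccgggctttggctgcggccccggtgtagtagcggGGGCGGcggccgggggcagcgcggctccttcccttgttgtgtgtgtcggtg
The Lyl1 window held 2 ETS matches, the Junb window 1 E box, the Dusp2 window 3 GC boxes and the Mnt window 4 GC boxes. All matches in the first 3 windows lie inside the peak, and none of those in the Mnt window does. No capitals overlap between patterns in these windows. As a base rate, among 32851 RefSeq promoter windows of the same length 14.9% held CCGGAA, 16.3% CAGCTG, 35.7% GGGCGG, 11.2% AGATAA, 1.79% TGACGTCA and 7.81% TGANTCA. Among the 637 windows that overlap a member peak the shares were 20.7%, 16.3%, 60.0%, 7.85%, 2.51% and 8.01% in the same order. A match is a description of letters, not a site shown to be bound.

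The clusters also hold small regulatory RNAs. RefSeq placed 38 miRNA genes with 65 mature sequences inside 29 of the clusters. The 5 below were chosen after their values were seen, because they are well known in blood or share a seed, the bases 2 to 8 that pair with targets, which are in capitals. miR-126a-3p is known for holding blood stem cells in a resting state, and the miR-142 pair is found across blood cells.
mmu-miR-126a-3p: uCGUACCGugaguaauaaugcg
mmu-miR-142a-5p: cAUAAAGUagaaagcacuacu
mmu-miR-142a-3p: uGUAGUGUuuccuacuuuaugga
mmu-miR-132-3p: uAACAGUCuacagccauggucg
mmu-miR-212-3p: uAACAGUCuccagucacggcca
miR-132-3p and miR-212-3p have the same seed and lie in the same cluster. The mature sequences are at chr2:26591402-26591423 (miR-126a-3p), chr11:87756867-87756887 and chr11:87756903-87756925 (miR-142a), chr11:75173723-75173744 (miR-132-3p) and chr11:75173443-75173464 (miR-212-3p), all on the plus strand, and their clusters are described with the other results.

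The clusters spanned 9.02 to 99.7 kb (median 35.2) and held 6 to 22 peaks of 700 bp (median 7). The median step from one member to the next was 5.30 kb, against 17.6 kb over all peaks. Gene bodies were part of most of them. In all, 434 clusters overlapped at least 1 protein-coding gene, 244 of them exactly 1 gene and 190 more than 1, and the genes numbered 700. A further 40 had a gene end within 50 kb, and 19 lay farther from any. Of the members, 518 (13.7%) were gene-end peaks, against 27.7% of all other peaks, a difference that the rule itself makes. Chromosome 11 had 53 clusters and the highest share of its peaks in clusters, 13.5%, and chromosome 10 the lowest, 5.21%. The X chromosome had 4 clusters.

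The libraries differed in depth and in how far they shared a pattern across the clusters, and this bears on every comparison that follows. Total counts in peaks were 304898 to 1229478 in the unconfined and 128257 to 340922 in the confined libraries. Wherever a value is given per library, libraries 1, 2 and 3 of a group follow in that order. A cluster held a median of 51, 206 and 164 counts (unconfined) against 60, 38 and 22 (confined), and a single member 5, 24 and 17 against 8, 5 and 3. Across the 493 clusters, Pearson's r of log2(CPM per peak + 1) between unconfined libraries was 0.841 to 0.905. CPM are counts scaled to a common total over all peaks of a library, and the level of a cluster is the mean CPM of its peaks. In confined library 3, 1 count equals 7.8 CPM, so values of single peaks there can rest on very few counts. Against the unconfined libraries, r was 0.553 to 0.602 for confined library 1, 0.0184 to 0.0929 for the second confined library and -0.0149 to 0.0529 for the third. Among the confined libraries it was 0.0750 to 0.152. Confined libraries 2 and 3 thus shared almost none of the order of clusters seen in unconfined cells. With all libraries thinned to the 128257 counts of the shallowest, the mean r between unconfined libraries went from 0.869 to 0.635. Clusters share libraries and depth and are not replicates, so these correlations carry no p. As a check of the sorted cell type, 13 gene-end peaks were found at 10 of 12 LT-HSC marker genes. They were at 39.6, 33.2 and 40.2 CPM in the unconfined libraries, near the 36.6, 34.3 and 38.3 CPM of all unclustered gene-end peaks. Erythroid and megakaryocyte markers (12 gene-end peaks) were as high, at 35.3, 33.1 and 40.99 CPM, so the check does not set stem cells apart from that lineage. B cell markers (10 gene-end peaks) were at 14.1 to 16.4 CPM, T and NK cell markers (2) at 11.5 to 15.5, myeloid markers (8) at 17.2 to 20.6 and endothelial and stromal markers (7) at 12.9 to 16.7. In the confined libraries the stem cell markers were at 26.6, 23.3 and 16.8 CPM. In confined library 1 the erythroid and megakaryocyte list was at 28.6 CPM and the remaining lists at 20.5 to 24.7. The 5 other lists were at 15.8 to 22.96 CPM in confined library 2 and at 17.9 to 27.3 in confined library 3. Stem cell markers were thus the lowest list in confined library 3, and gaps between most lists were smaller in confined libraries 1 and 2 than in unconfined ones. In bulk libraries, fewer cells with an open site and less cutting per cell cannot be told apart.

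With the clusters as defined, the share of all counts that fell in them did not differ between the groups beyond the spread of the libraries. It was 9.35%, 9.21% and 9.25% among unconfined and 9.39%, 9.13% and 9.01% among confined libraries. The widest 95% Clopper-Pearson interval, that of the shallowest library, ran from 8.86% to 9.17%, and such intervals cover counting error only. The groups overlapped, and the difference of -0.0904 percentage points (9.27% ± 0.0715 against 9.18% ± 0.192, SD, n = 3 each) was within the spread between libraries (two-sided exact permutation p = 0.5). The result depended on how the members were chosen. The groups separated fully (exact permutation p = 0.1), with a higher share in confined cells, without gene-end peaks (0.411 points) and with steps of 20 kb (0.474). They also separated with a lower share in confined cells with steps of 8 kb (-0.151) and with 9 or more peaks (-0.295). With the first confined library alone the difference was 0.121 points.

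Within the clusters, gene-end members were lower and the other members higher in the confined libraries. The 518 gene-end members were at 34.3, 32.03 and 35.2 CPM per peak in the unconfined and 26.9, 21.97 and 21.6 in the confined libraries. The 3262 other members were at 23.2, 23.1 and 22.8 against 24.5, 24.5 and 24.2 CPM per peak. Groups did not overlap in either class. Since CPM have a fixed total in each library, peaks away from gene ends must be higher on average where gene-end peaks are lower. Unclustered peaks away from gene ends differed more between the groups, from 18.4 ± 0.779 to 23.4 ± 1.45 CPM (SD, n = 3 each), and unclustered gene-end peaks from 36.4 ± 2.01 to 23.3 ± 3.63. In confined libraries 2 and 3 the mean levels of the 4 classes lay between 21.2 and 24.5 CPM.

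**Figure D1:**
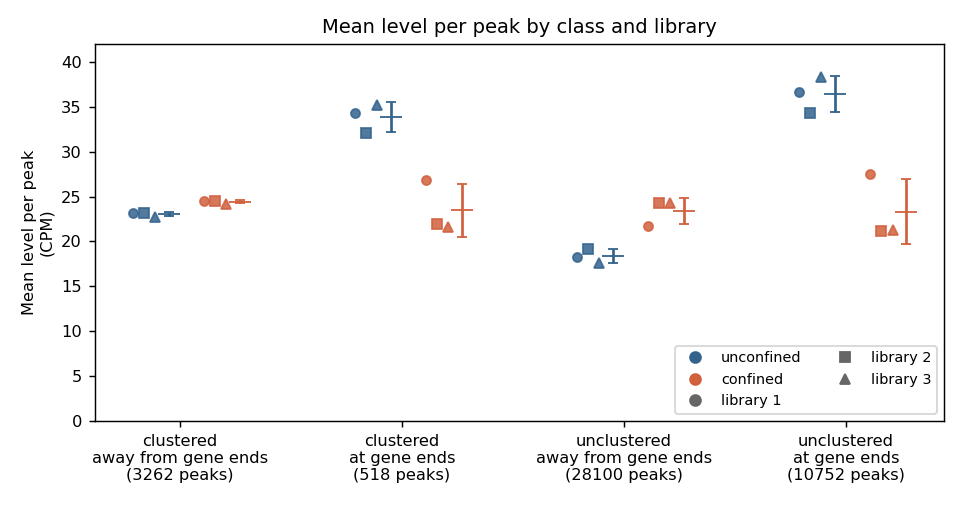
Mean level per peak (y axis, CPM) of 4 classes of peaks (x axis), with 1 symbol per library, the mean as a horizontal line and the SD as a bar (n = 3 libraries per group). Unconfined libraries (blue) order the classes from 18.4 to 36.4 CPM on average, while the group means of the confined libraries (orange) lie between 23.3 and 24.4 CPM in all 4 classes. Confined library 1 has the same order of classes as the unconfined means, from 21.7 to 27.5 CPM.

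Away from gene ends, clustered sites stood above unclustered ones in unconfined cells, and by less in confined cells. The log2 ratio of the mean counts of clustered to unclustered peaks in this class was 0.35, 0.27 and 0.37 in the unconfined and 0.17, 0.02 and -0.00225 in the confined libraries. All 3 same-numbered pairs were lower in the confined cells and the groups did not overlap. The means were 0.33 and 0.06, a difference of -0.27 on the log2 scale, larger than the SD in either group (0.05 and 0.10). An exact permutation test, two-sided, gave p = 0.1, which no comparison of 3 with 3 can go below, and 0.133 after Benjamini-Hochberg adjustment over the 8 library measures tested in this way. The same adjusted value holds for each other library measure whose exact permutation p is 0.1. With the first confined library alone the difference was -0.15. Since the ratio is taken inside each library, total depth and scaling drop out of it.

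Against the 137 gene-rich chains the clusters moved the other way. The log2 ratio of counts per peak was -0.36, -0.31 and -0.38 in unconfined and -0.08, 0.11 and 0.03 in confined libraries, a difference of 0.36 (exact permutation p = 0.1), or 0.27 with the first confined library alone. Gene-end members stood above the other members of the clusters by 0.55 on the log2 scale in unconfined cells on average and by -0.06 in confined cells (difference -0.62, exact permutation p = 0.1; -0.42 with the first confined library alone). Outside the clusters the same contrast went from 0.99 to -0.01 (difference -1.003, exact permutation p = 0.1). By position, peaks that were not first or last in their cluster stood above the first and last by 0.0260 (unconfined) and 0.0273 (confined) on the log2 scale, and this did not differ beyond the spread (difference 0.00125, exact permutation p = 1, two-sided). Without gene-end peaks the difference was -0.0983 and the groups did not overlap (exact permutation p = 0.1).

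In unconfined cells the counts of a cluster were unevenly split among its peaks. The leading peak was taken as the one highest in the unconfined libraries of other numbers, so the measured library never chose it. On average it held 29.7%, 24.8% and 29.3% of its cluster's counts in the unconfined libraries. Peaks chosen in this way held 20.4%, 14.3% and 13.6% in the confined libraries. An equal split over the peaks of each cluster would give 13.8%, so in confined libraries 2 and 3 the peaks that lead in unconfined cells held about an equal part. The means were 27.9% ± 2.72 and 16.1% ± 3.75 (SD, n = 3 each), a difference of -11.9 points with no overlap (exact permutation p = 0.1). With the first confined library alone it was -7.54 points, and with every library thinned to the smallest total it was -10.8 points. Of the 493 leading peaks, taken over all 3 unconfined libraries, 120 (24.3%) were gene-end peaks. A peak that leads only in confined cells would not be seen by this measure. Leading peaks were chosen in unconfined cells for both groups, so any reordering in confined cells tends to lower the share there. The choice thus favours a fall, and the difference and its permutation p are a description.

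The order of clusters by level in unconfined cells was also largely lost in confined libraries 2 and 3. Clusters were ranked in the unconfined libraries of other numbers, and the 98 highest held 2.65, 2.005 and 2.69 times the level of the 98 lowest in the unconfined libraries. Among the confined libraries the ratio was 1.44, 1.02 and 1.01, so a difference between these sets of clusters was left only in confined library 1. The ratio follows sets ranked in unconfined cells and does not measure how far clusters differ from each other within a confined library. Such a ranking favours a lower ratio in confined cells, so the difference and its permutation p are a description. The means were 2.45 ± 0.384 and 1.16 ± 0.246 (SD, n = 3 each), a difference of -1.29, or -1.01 with the first confined library alone (exact permutation p = 0.1). This measure and the contrasts of gene-end with other peaks were added after the data had been seen.

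**Figure D2:**
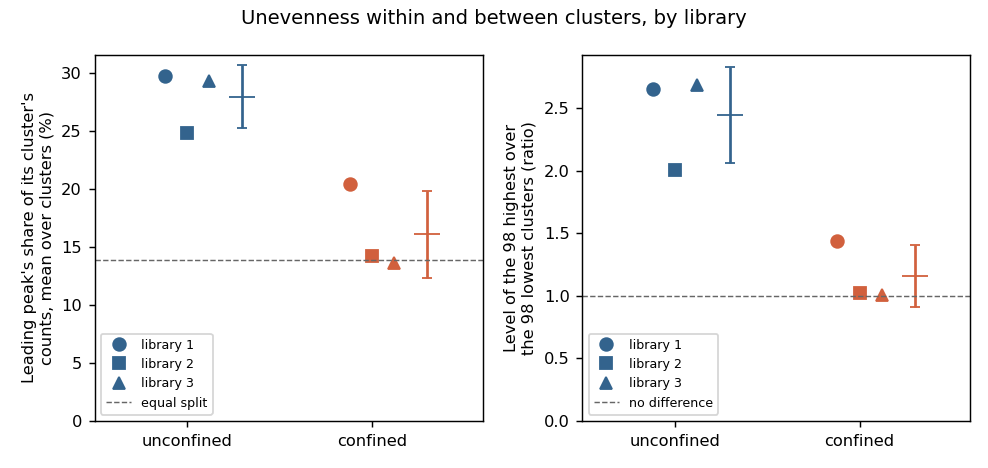
Left, mean share of a cluster's counts held by its leading peak (y axis, percent); right, level of the 98 highest over the 98 lowest clusters (y axis, ratio); symbols are libraries, lines means and bars SD (n = 3 per group). Confined library 1 lies between the groups in both panels, and confined libraries 2 and 3 lie at the dashed lines, an equal split of 13.8% on average and a ratio of 1.

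Counts summed per cluster were then tested one by one, in a fit over all chains of the genome. By edgeR's quasi-likelihood test with Benjamini-Hochberg adjustment at a threshold of 0.05, 59 of the 493 clusters rose in confined cells (11.97%, against 8.84% of all 11405 tested chains) and 33 fell (6.69%, against 12.1%). All 493 clusters passed the filter on low counts. The median log2 fold change of the clusters was 0.15 and that of all tested chains 0.00, with a median standard error of 0.22 per cluster. The other chains held fewer peaks, or more gene ends, than the clusters. Of the 137 chains rich in gene ends, 2 rose (1.46%) and 25 fell (18.2%), with a median of -0.17. The balance between rises and falls moved with the settings: scaling by total counts alone gave 34 higher and 39 lower and a median of 0.06, and no filter on low counts gave 8 and 50 and a median of -0.13.

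Levels of the clusters called are given as a description, since the unconfined level is part of the fold change from which they were called. The 59 that rose were at 9.86 to 24.5 CPM per peak in unconfined cells (median 14.9) and the 33 that fell at 31.9 to 55.4 (median 41.6). In confined cells the medians were 25.8 and 23.3 CPM per peak, near the median of all clusters there, 23.8. CPM have the same total in every library, so counts spread evenly over all peaks would put all clusters at a common level. Whether the called clusters moved toward such a level or changed each on its own was not tested. Gene-end peaks made up 8.62% of the 429 peaks in clusters that rose and 20.5% of the 259 in clusters that fell. Of 169 clusters with no gene-end peak, 30 rose and 5 fell (median log2 fold change 0.29), and of the 324 others 29 rose and 28 fell (median 0.08). Of the 138 clusters with 9 or more peaks, 10 rose and 11 fell, with a median of 0.00. All 33 that fell, and 49 of the 59 that rose, had groups that did not overlap. Among all clusters, called or not, the groups did not overlap at 84 that were higher and 83 that were lower in confined cells. Choosing clusters by a small p favours separate groups, so separation at the called clusters is a description.

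**Figure D3:**
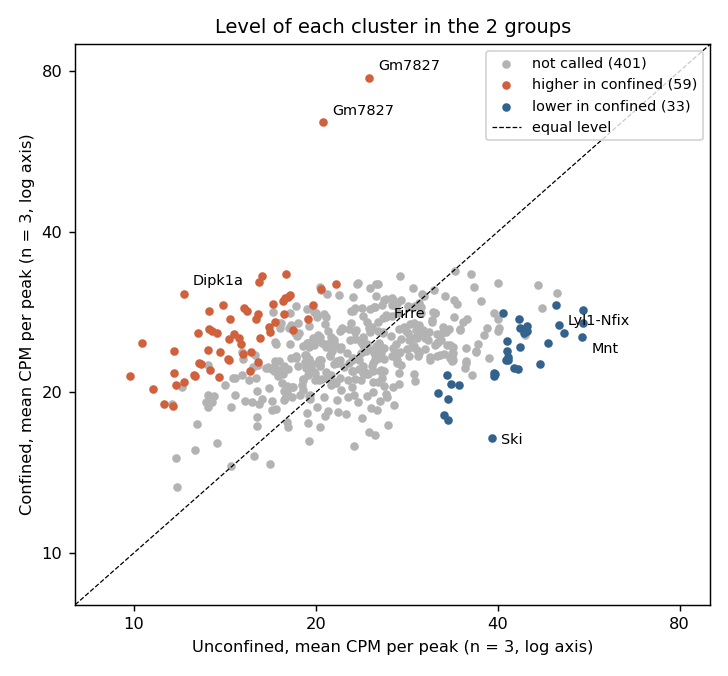
Mean level of each of the 493 clusters in unconfined (x axis) and confined (y axis) libraries, both in CPM per peak on log axes (n = 3 libraries each), with clusters that rose in orange (59) and fell in blue (33). The cloud spreads from 9.86 to 55.4 CPM along the x axis, and apart from the pair at Gm7827 reaches no higher than 33.8 CPM on the y axis.

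The clusters that rose furthest were a neighbouring pair at Gm7827, a predicted protein-coding gene on chromosome 8. The first (chr8:71130864-71148543, 6 peaks) was at 33.9, 24.7 and 14.9 CPM per peak in the unconfined and 43.5, 101.6 and 88.4 in the confined libraries, a log2 fold change of 1.81 (SE 0.27, adjusted p = 0.000181). The second (chr8:71168347-71206129, 7 peaks) was at 24.4, 24.5 and 12.9 against 32.3, 96.1 and 64.6, a log2 fold change of 1.75 (SE 0.28, adjusted p = 0.000272). No library of one group reached into the other, and confined libraries 2 and 3 were far higher than confined library 1. Most of their peaks also rose when tested singly, 4 in the first cluster and 5 in the second, with log2 fold changes of 1.93 to 3.05. These 2 were the only clusters whose mean in confined cells was above that of every cluster in unconfined cells.

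The other clusters that rose by the smallest p lay in genes of varied function and started from low levels. The cluster in Dipk1a (8 peaks), a gene of a family of kinase-like proteins, went from 10.7, 13.3 and 12.3 to 19.4, 37.3 and 35.1 CPM per peak (log2 fold change 1.35, SE 0.25, adjusted p = 0.000986). The cluster in Cmip (10 peaks), an adaptor protein gene, went from 12.5, 18.2 and 18.2 to 27.6, 28.0 and 43.7 (1.02, SE 0.21, adjusted p = 0.00245). Groups were separate in both. Clusters near Ugcg, the gene of the enzyme that makes glucosylceramide (14.1 to 29.2 CPM per peak), at the urea transporter gene Slc14a1 (log2 fold change 1.11), in Dab2ip, a RAS GTPase-activating protein gene (1.04), at Cacna2d4, a calcium channel subunit gene (1.03), in the formin gene Fmnl2 (1.02) and at Ccr7, a chemokine receptor of lymphoid and dendritic cells (0.90), rose as well, and none had groups that overlapped. Sgms1, a sphingomyelin synthase gene, carried 14 peaks and was among the 8 clusters with the most peaks. It went from 15.2, 16.4 and 16.9 to 18.6, 30.7 and 26.7 CPM per peak (log2 fold change 0.71, SE 0.20, adjusted p = 0.0147).

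The calls of the rises depended on which libraries were kept. All fits below reuse libraries from which the calls were made, so a kept sign is a description. Of the 59 clusters, 9, 36 and 5 passed again without unconfined library 1, 2 or 3 and 49, 7 and 28 without confined library 1, 2 or 3. Both Gm7827 clusters, Dipk1a and Cmip passed in all 6 of these fits. With the first confined library alone, which is then assumed to vary like the unconfined ones, none passed in edgeR (16 higher and 66 lower of the 493 at an unadjusted p under 0.05), while 56 of the 59 had the same sign, and the log2 fold changes of the Gm7827 pair were 0.74 and 0.51. With gene-end peaks left out of every chain and the scaling computed again, 17 passed and all 59 kept their sign. The median log2 fold change of all clusters was then -0.0217, against 0.15 in the main fit. In that fit the calls of Ccr7 (0.56), Sgms1 (0.42) and Cacna2d4 (0.75) were lost. What part of such a loss came from the cluster's own gene-end peaks was not tested. With no filter on low counts the calls of these 3 and of Fmnl2 (0.75) were lost.

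Among clusters that fell, that in Ski had the fold change of greatest size. Ski encodes a repressor of SMAD signalling, the pathway downstream of TGF-beta. Its cluster (chr4:155217080-155250202, 7 peaks) was at 41.2, 32.2 and 44.1 CPM per peak in the unconfined and 21.8, 17.4 and 10.02 in the confined libraries, a log2 fold change of -1.06 (SE 0.23, adjusted p = 0.00343). The cluster in Mnt (chr11:74830095-74848528, 6 peaks) was at 54.1, 51.5 and 60.0 against 25.4, 24.8 and 26.0 (-1.03, SE 0.20, adjusted p = 0.00122). The confined libraries were close together there, and the groups far apart. Its leading peak, which reaches into the promoter window printed above, went from 134 to 33.2 CPM (log2 fold change -1.05, adjusted p = 0.0671, not past the threshold), and the peak beside it fell from 78.0 to 14.6 CPM (-1.79, adjusted p = 0.00688). Here and below, fold changes of single peaks come from the fit per peak, which scales the libraries anew, so they differ from the ratios of the CPM given.

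Several clusters on chromosome 8 fell, among them those of Lyl1 and Junb. The Lyl1 cluster (chr8:84687473-84744625, 13 peaks) extends over Nacc1 and Trmt1 to Nfix, a nuclear factor I gene that is also known in blood stem cells. It was at 56.0, 43.2 and 52.5 CPM per peak in the unconfined and 36.8, 27.4 and 16.2 in the confined libraries (log2 fold change -0.75, SE 0.18, adjusted p = 0.00598). The leading peak, which holds the Lyl1 promoter window, fell from 213, 106 and 154 CPM to 41.1, 31.6 and 0 (-1.64, SE 0.43, adjusted p = 0.013). As it was chosen for its level in these same unconfined libraries, its fall is a description. The Junb cluster (chr8:84965792-84998459, 9 peaks) was at 47.7, 44.4 and 53.1 against 30.6, 22.1 and 21.7 CPM per peak (-0.84, SE 0.18, adjusted p = 0.00305). The groups did not overlap at either. The peak on the Junb promoter window was at 95.1, 63.4 and 82.3 against 29.3, 27.1 and 15.6 CPM, with an adjusted p of 0.118 in the fit per peak. On the same chromosome the cluster at Rab8a, a vesicle transport GTPase gene, and Tpm4, a tropomyosin gene, fell by 0.83 on the log2 scale (adjusted p = 0.00843). Without its gene-end peaks that cluster was at -0.17 (adjusted p = 0.712), and without confined library 2 the call was lost too (adjusted p = 0.0659).

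Gse1, a gene of a protein found with a histone demethylase complex, had 4 separate clusters, and 1 of them fell. The one at chr8:120363593-120384174 was at 58.1, 51.5 and 56.5 CPM per peak in the unconfined and 36.5, 29.0 and 20.05 in the confined libraries (log2 fold change -0.79, SE 0.19, adjusted p = 0.0059). The other 3, named here after their values were seen, started at 23.2, 27.0 and 25.2 CPM per peak and had log2 fold changes of 0.19, -0.39 and 0.42, none past the threshold. The difference between clusters of this gene was not tested. The highest level of any cluster in unconfined cells, 55.4 CPM per peak on average, was shared by this cluster and one with no protein-coding gene within 50 kb (chr17:83956305-84004688, 9 peaks). The latter overlaps long noncoding RNA genes, Gm41638 and 8430430B14Rik among them, and its nearest coding end is that of Haao at 107324 bp. It was at 60.1, 49.6 and 56.6 against 31.0, 26.6 and 23.4 CPM per peak (-0.91, SE 0.17, adjusted p = 0.00119).

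**Figure D4:**
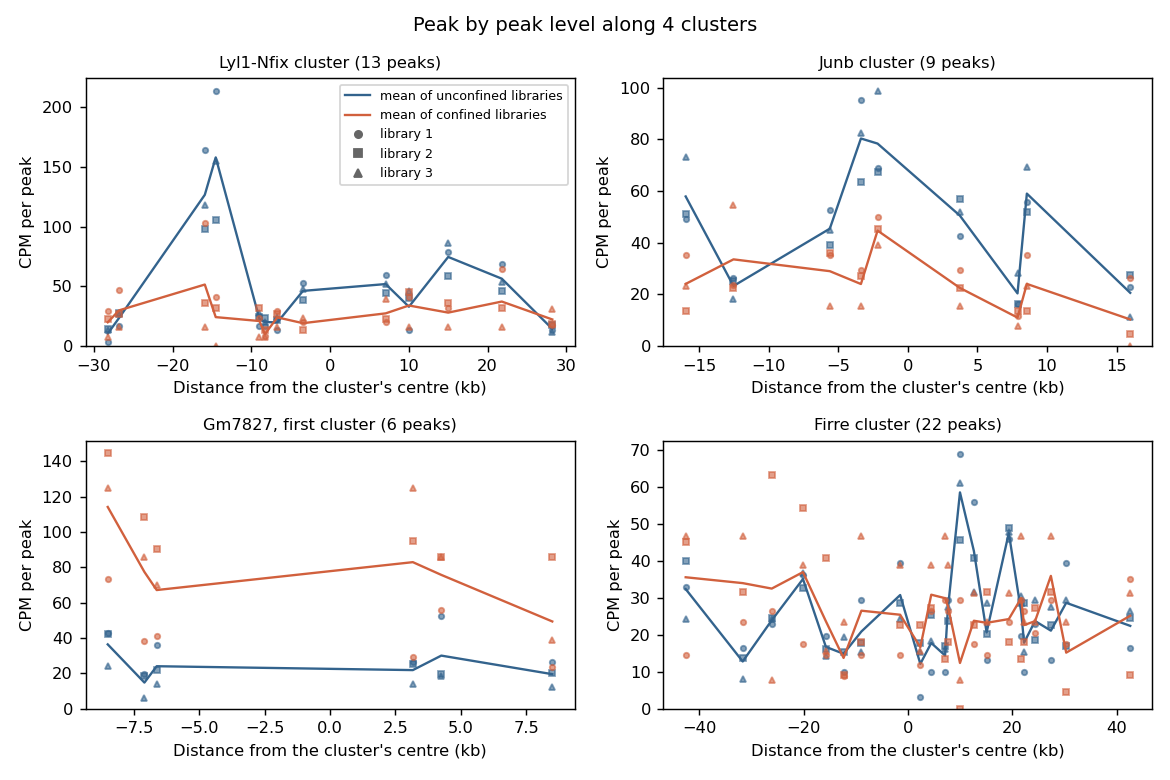
Level of each peak (y axis, CPM) by its distance from the centre of the cluster (x axis, kb) in 4 clusters, with lines for group means and symbols for libraries (blue unconfined, orange confined, n = 3 each). At Lyl1-Nfix and Junb the unconfined line rises to peaks of 158 and 80.3 CPM that are at 24.2 and 24.01 CPM in confined libraries, at the first Gm7827 cluster every peak has the higher mean in confined libraries, and at Firre the lines cross.

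Other named clusters that fell lay at genes of varied function. That from Acin1 to Cebpe went from 46.5, 46.1 and 48.6 to 30.8, 13.6 and 23.4 CPM per peak (log2 fold change -0.94, SE 0.22, adjusted p = 0.00585), and without gene-end peaks it was at -0.61 (adjusted p = 0.128). Cebpe encodes a factor of late granulocyte development, but the leading peak lay at the other edge of the cluster, on Acin1. A cluster that holds Cirbp, a cold-inducible RNA-binding protein gene, and Midn fell by 0.77 on the log2 scale. The one at the calcium-activated potassium channel gene Kcnn4 fell by 0.73. One inside Plec, the gene of the cytoskeletal linker plectin, was named for its high unconfined level and fell by 0.61 (adjusted p = 0.0355). The cluster at C5ar1, the complement C5a receptor gene, and Bbc3, which encodes the death-promoting protein PUMA, had 16 peaks and was named for their number. It went from 31.2, 32.0 and 35.7 to 21.8, 21.5 and 21.4 CPM per peak (-0.52, SE 0.16, adjusted p = 0.0232).

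All 33 clusters that fell were lower in every alternative fit of the same clusters. These fits reuse libraries from which the calls were made, so a kept sign is a description. The calls themselves depended on the libraries. Of the 33 clusters, 24, 30 and 11 passed again without unconfined library 1, 2 or 3 and 30, 11 and 23 without confined library 1, 2 or 3, and 7 passed in all 6 fits: Ski, Mnt, Junb, Lyl1, Gse1, Cirbp and the noncoding cluster on chromosome 17. With the first confined library alone 9 passed and all 33 were lower, those of Ski by 1.02 and of Lyl1 by 0.63 on the log2 scale. With gene-end peaks left out 24 passed, and among the named clusters those of Rab8a, Acin1, Spi1, Syne3 and C5ar1 lost their calls. DESeq2 called 9 of the 33 again.

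Genes known for stem cell identity were described as lists, whose members were linked to a cluster by overlap or by a nearest end within 50 kb. Of 48 transcription factors of blood stem cells, 17 lay at 16 clusters. Of these clusters 2 fell and none rose in edgeR, with a median log2 fold change of 0.12, against 8.84% that rose, 12.1% that fell and a median of 0.00 over all tested chains. At an unadjusted p under 0.05 there were 1 higher and 2 lower, and DESeq2 called 0 and 1. The falls were at Lyl1 with Nfix and at Spi1, the gene of PU.1, a factor of myeloid and B cell fate that also acts in stem cells. Spi1's cluster (6 peaks) was at 46.5, 38.8 and 47.4 against 25.4, 28.6 and 23.4 CPM per peak (log2 fold change -0.66, SE 0.21, adjusted p = 0.0261), with no overlap. Without gene-end peaks it was at -0.30 (adjusted p = 0.447), and DESeq2 did not call it (adjusted p = 0.105). At Gata2, a zinc finger factor that stem cells need, the cluster (6 peaks) was at 29.0, 28.1 and 30.7 against 26.9, 16.6 and 19.5 CPM per peak, which did not pass (-0.35, SE 0.23, adjusted p = 0.276). Its leading peak, within the same cluster and away from gene ends, fell from 75.4, 77.3 and 101 to 29.3, 13.6 and 15.6 CPM (-1.34, SE 0.38, adjusted p = 0.0228), a call that the replicate block ended (adjusted p = 0.0862). That peak was chosen for its level in unconfined cells, so its fall is a description. The other 13 clusters of the list, among them those of Erg (-0.12), Bach2 (0.02), Fli1 (0.32) and Nkx2-3 (0.66), did not pass.

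Receptors and surface proteins that tie stem cells to their niche made up a list of 43 genes, of which 11 lay at 11 clusters. Of these clusters 1 rose and 1 fell (median 0.12), which is close to the 8.84% and 12.1% of all tested chains. At an unadjusted p under 0.05 there were 1 higher and 2 lower, and DESeq2 called 1 and 0. Cxcr4, the receptor that holds stem cells in the marrow, had a cluster at 35.5, 32.4 and 35.6 against 23.0, 18.1 and 20.8 CPM per peak (log2 fold change -0.64, SE 0.22, adjusted p = 0.0415). The groups were separate, but the call was lost with the replicate number as a block (adjusted p = 0.061) and without any 1 of 4 libraries, confined library 2 and each of the unconfined ones. Cd82, a tetraspanin gene linked to stem cell rest, had a cluster that rose from 14.99, 21.4 and 17.6 to 26.4, 34.2 and 30.1 (0.79, SE 0.23, adjusted p = 0.0165). It lost its call without unconfined library 1 or 3 or confined library 2. At Adgrg1, an adhesion receptor gene, the cluster was at 40.01, 39.9 and 40.05 against 37.0, 24.4 and 21.1 CPM per peak (-0.40, SE 0.18, adjusted p = 0.11). It passed without gene-end peaks, in a fit that scales all chains anew (-0.68, adjusted p = 0.021). Clusters at Cd81 (-0.09) and Eng (-0.08), the gene of the TGF-beta co-receptor endoglin, did not pass.

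**Figure D5:**
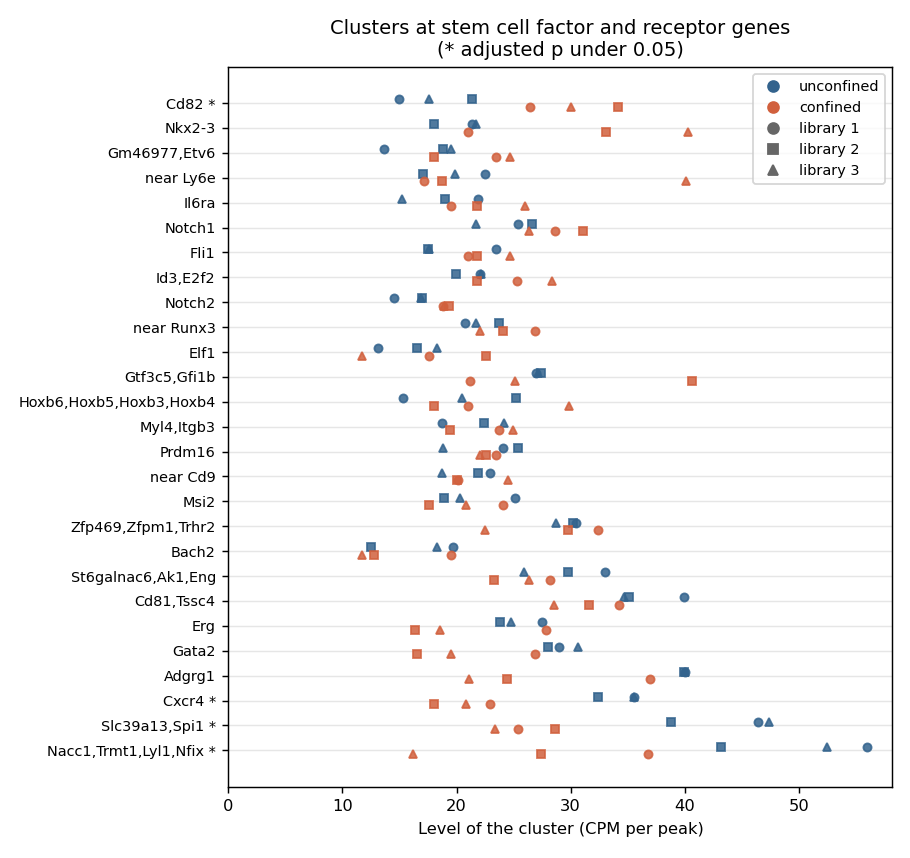
Level in each library (x axis, CPM per peak) of the 27 clusters linked to stem cell factors and receptors (y axis, named by the genes they overlap or the nearest one, in order of log2 fold change); blue is unconfined, orange confined, symbols are libraries (n = 3 each) and a star marks an adjusted p under 0.05. Lyl1-Nfix, Spi1 and Cxcr4 at the bottom have all confined values to the left of all unconfined ones, and Cd82 at the top the reverse.

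Genes that respond within minutes to stress or growth signals, and genes of the mechanical response, were given the same count. Of 47 early response genes, 11 lay at 11 clusters, of which 1 rose, 1 fell and the median was -0.02, again close to the 8.84% and 12.1% of all tested chains. At an unadjusted p under 0.05 there were 2 higher and 2 lower, and DESeq2 called 0 and 1. The fall was at Junb. The rise was at Dusp5, a phosphatase of ERK (0.60, adjusted p = 0.0396), and was lost without any 1 of the 6 libraries. At Dusp2 the cluster was at 41.5, 43.6 and 47.9 against 35.7, 30.9 and 10.4 CPM per peak, which did not pass (-0.59, SE 0.23, adjusted p = 0.0696), while the leading peak on the window printed above fell from 88.6, 77.3 and 106 to 32.3, 27.1 and 0 CPM (-1.23, SE 0.39, adjusted p = 0.0419), a call that the replicate block ended (adjusted p = 0.106). That peak too was chosen for its level in unconfined cells, so its fall is a description. The clusters of Nr4a1 (-0.23) and Ier2 (-0.13) did not pass. Of 52 mechanical response genes, 10 lay at 10 clusters, of which none rose in edgeR, 1 fell and the median was -0.01. At an unadjusted p under 0.05, 1 was higher and 2 lower, and DESeq2 called none. The fall was at Syne3, a nesprin that links the nuclear envelope to the cytoskeleton, and Glrx5 (10 peaks; 49.2, 41.2 and 44.1 against 31.7, 22.6 and 25.7 CPM per peak; -0.63, SE 0.17, adjusted p = 0.0138). It was lost without gene-end peaks (-0.40, adjusted p = 0.203). At Lmna, the lamin A gene, the cluster was at 40.5, 35.3 and 35.6 against 25.1, 24.6 and 24.3 CPM per peak. The groups there were separate, yet the fit did not pass it (-0.48, SE 0.19, adjusted p = 0.0592), while scaling by total counts did (adjusted p = 0.037). Actb (0.00) and Tagln2 (-0.01) had clusters whose groups overlapped.

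Markers of other blood and marrow cells were counted at the clusters too, with no share over all genes to set beside the counts. None of 21 T and NK cell and none of 16 B cell marker genes had one, and 1 of 21 myeloid (Cebpe, above), 1 of 19 erythroid and megakaryocyte (Gp1ba, 0.07) and 1 of 18 endothelial and stromal (Pecam1, 0.04) markers did.

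Of the 8 clusters with the most peaks, 1 rose (Sgms1), 1 fell (C5ar1 with Bbc3) and 6 did not pass. The one with the most, 22 peaks over 85.9 kb of the X chromosome (chrX:50549889-50635752), lies at Firre, a long noncoding RNA gene known for its part in nuclear organisation. It was at 25.6, 25.8 and 26.0 CPM per peak in the unconfined and 21.5, 24.6 and 31.5 in the confined libraries (log2 fold change 0.08, SE 0.16, adjusted p = 0.753). The unconfined libraries were nearly equal and the confined ones lay on either side of them. Its leading peak went from 68.9, 45.5 and 61.0 to 29.3, 0 and 7.8 CPM, the last being 1 count, without passing the fit per peak (adjusted p = 0.107). At Zfpm1, a cofactor of GATA factors (17 peaks), the level was 29.8 ± 0.933 against 28.2 ± 5.16 (SD, n = 3 each; log2 fold change 0.04, SE 0.16). The clusters at Cxxc5 (16 peaks, -0.10), from Hpn to Gramd1a (16 peaks, 0.00), at Capzb (15 peaks, 0.36) and from Vps13d to Tnfrsf8 (15 peaks, 0.02) did not pass. A p that misses the threshold does not show that the groups were alike. The cluster at Dym (6 peaks), among the 8 with the highest level in unconfined cells, was at 66.7, 38.8 and 44.9 against 42.5, 24.8 and 24.7 CPM per peak, with overlap (-0.51, adjusted p = 0.104). It passed with the replicate block (adjusted p = 0.039). It also passed without gene-end peaks, in a fit that scales all chains anew (-0.84, adjusted p = 0.0215).

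The clusters of the printed miRNAs did not pass the test. The Egfl7 cluster, which holds miR-126a, was at 33.5, 29.5 and 30.4 against 28.5, 27.1 and 25.7 CPM per peak (log2 fold change -0.09, SE 0.18, adjusted p = 0.745). The cluster of miR-142a, between Supt4a and Tspoap1, was at 34.7, 38.3 and 37.5 against 28.1, 27.1 and 16.7 (-0.48, SE 0.21, adjusted p = 0.094). All confined values lay below all unconfined ones at both. The cluster of the shared seed of miR-132 and miR-212, at Hic1, had equal means of 23.8 CPM per peak.

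Single members could seldom be tested. The filter on low counts kept 902 of the 3780 (23.9%), and a peak could enter by being high in 1 group, so counts over them are given as a description. In the fit over all 9084 tested peaks 71 members rose (7.87%, against 5.79% of all tested peaks) and 21 fell (2.33%, against 2.42%), 5 and 9 of them at gene ends. Under scaling by total counts 44 rose and 170 fell, since that scaling moved the median of the tested members by -0.66 on the log2 scale. The 71 that rose lay in 62 clusters and the 21 that fell in 21. Of these peaks 26 lay in clusters that rose and 13 in clusters that fell, and no cluster held both a peak that rose and one that fell.

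Inside the clusters named above, 31 single peaks passed the fit per peak, and most of the falls among them did not hold with the replicate number as a block. In all, 21 peaks rose, in 13 clusters, and 19 of them passed again with the block. Of the 10 that fell, each in a cluster of its own, 3 passed again, those at Mnt, Lyl1 and Cirbp. A leading peak was chosen for its level in these same unconfined libraries, so its fall is a description. The leading peaks at Cirbp (89.5 to 16.3 CPM, log2 fold change -1.41), Ski (110 to 22.8 CPM, -1.33), Acin1 (149 to 29.6 CPM, -1.29), C5ar1 with Bbc3 (114 to 24.2 CPM, -1.26, adjusted p = 0.0367) and Cxxc5 (63.6 to 15.1 CPM, -1.38, adjusted p = 0.0447) fell, as did a peak at Kcnn4 that does not lead (65.8 to 16.6 CPM, -1.28). With the block the adjusted p was 0.0782 at Ski, 0.0552 at Acin1, 0.0881 at C5ar1, 0.108 at Cxxc5 and 0.127 at Kcnn4, none past the threshold.

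Outside the Gm7827 pair, the single peaks that rose started from 10.4 to 29.2 CPM in unconfined cells. Their fold changes rest on the scaling of the fit per peak and are larger than the ratios of the CPM given. Scaling by total counts moved the median of the tested members by -0.66 on the log2 scale. With it, 44 of the 71 member rises passed again, and 170 members fell. The largest in a cluster that did not itself pass were at Eng (15.6 to 41.9 CPM, log2 fold change 2.004, adjusted p = 0.0103) and in the cluster from Vps13d to Tnfrsf8 (29.5, 13.01 and 14.2 against 38.1, 40.7 and 46.8 CPM, 2.00, adjusted p = 0.0115), and both passed with the block. Others of this kind were at Cd81 (1.76), the edge of the Zfpm1 cluster (21.5 to 40.04 CPM, 1.62), Actb (1.43) and Tagln2 (1.29). The Syne3 cluster fell, yet 1 of its peaks rose from 29.2 to 49.5 CPM (1.48, adjusted p = 0.0101). Among clusters that rose, Cmip had 2 such peaks (2.55 and 1.75), and those at Dab2ip (2.40), Cacna2d4 (1.56) and Ugcg (1.48) had 1 each. The block ended the calls at Cacna2d4 (adjusted p = 0.0976) and Cd81 (adjusted p = 0.0502).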

How the data were processed

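The authors deposited 1 table of raw counts of reads per peak for 6 libraries and the positions of its 42632 peaks. The submitters' processing notes name featureCounts, SAMtools 1.14, R 4.2.0 and mm10 without saying what each was used for. Not given in the sources used here are the peak caller, the libraries that peaks were called on, and any shift of reads for the transposase.

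Members, gene lists and tests were chosen with earlier results of these data known. Clusters were built from peak positions and the gene starts and ends of RefSeq (GRCm38.p6), which come without exons. Of all members, 59 overlap the member before them. Counts were summed per chain and tested over all chains by the quasi-likelihood test (glmQLFit, glmQLFTest) of edgeR 4.0.16 under R 4.3.3, and likewise per peak. Low counts were removed with filterByExpr, TMM was the scaling and the model held the group alone. The standard error (SE) is the log2 fold change divided by the square root of the F value. DESeq2 1.42.0 and limma-voom (limma 3.58.1) were alternatives, as were total counts as the only scaling, no filter, the replicate block, each library left out, the first confined library alone, steps of 8 and 20 kb, 9 or more peaks, and no gene-end peaks. The last took gene-end peaks out of every chain and computed the scaling again, so it also moved the fold changes of the clusters as a whole. Exact permutation tests and intervals used Python 3.11.15 with SciPy 1.17.1. Simulated counts for 11405 chains, at the depths of the 6 libraries, were used to test the fit. Both groups were drawn from the mean unconfined profile, with the same spread for every chain and 100 chains changed per fold size. The fit found 53% of 2-fold and 19% of 1.5-fold changes and called 3 of 11205 chains without change. Confined libraries 2 and 3 did not follow that profile, so these rates need not hold for the data. Even in the simulation, 1.5-fold changes were mostly not found.

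Clusters named were the 8 with the most peaks, the 8 highest in unconfined cells, in each direction the 10 of smallest p among those past the threshold and moved alike in all 3 same-numbered pairs, and up to 4 per gene list, with their leading peaks and any peak past the threshold. Clusters outside this rule were named after their values were seen: Cd82 and Dusp5 as the only rises of their lists, the further Gse1 and miRNA clusters, and list members given with a fold change alone.

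Same-numbered samples share an experimental batch in the labels, from which the pairing comes. Across clusters, the correlation of same-numbered libraries after subtraction of their group means was 0.0212, 0.160 and -0.139, and that of differently numbered ones -0.261 to 0.265, so the pairing was not visible in the data.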

Additional observations from a re-analysis of the deposited data

How the results depend on the processing

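Ratios inside a library kept their direction in every alternative run: clustered over unclustered peaks, clusters over gene-rich chains, gene-end over other members, the leading peak's share and the 98 highest over the 98 lowest clusters. Leading peaks and ranked clusters were chosen in unconfined cells, which favours the direction seen. Gene-end over other members has no value without gene-end peaks. The causes of the changes below were not tested. The difference in the clusters' share of counts turned positive with the first confined library alone (0.121 points), with steps of 20 kb (0.474) and without gene-end peaks (0.411). The contrast of inner with outer peaks was -0.0278 with steps of 20 kb, -0.0290 with 9 or more peaks, -0.0983 without gene-end peaks, where the groups did not overlap, and -0.0116 to 0.0131 with each library left out in turn. The mean correlation between unconfined libraries was 0.635 after thinning, an alternative added after seeing the data, and 0.841 to 0.905 with a library left out. That of unconfined with confined libraries was 0.580 with the first confined library alone.

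Counts of clusters past the threshold depended on the settings. Clusters that rose numbered 34 under total scaling, 8 with no filter, 29 by DESeq2, 0 with the first confined library alone by edgeR, where 10 fell, 22 and 119 with steps of 8 and 20 kb, 10 with 9 or more peaks, 17 without gene-end peaks and 5 to 78 with a library left out. Clusters that fell numbered 50 with no filter, 9 by DESeq2, 6 and 64 with steps of 8 and 20 kb, 11 with 9 or more peaks and 11 to 46 with a library left out. Steps of 8 kb leave 154 clusters, steps of 20 kb 951 and the larger minimum 138. Of the main calls, DESeq2 made 29 of 59 rises and 9 of 33 falls again. Members that rose numbered 44 under total scaling, 41 with no filter, 0 with the first confined library alone and 24 to 162 with a library left out. Those that fell numbered 170, 141, 2 and 9 to 60 under the same settings, and 6 by DESeq2. The median log2 fold change of the clusters was 0.0610 under total scaling, -0.131 with no filter, -0.0915 with the first confined library alone, 0.23 with steps of 8 kb, 0.00308 with 9 or more peaks, -0.0217 without gene-end peaks and -0.00583 to 0.12 with a library left out.

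With the replicate block 48 clusters rose and 28 fell, 46 and 25 of them among the main calls, and members that fell numbered 9. Among the named clusters the block ended the call of Cxcr4 and added that of Dym, and changed no other. With a median of 22 counts per cluster and 3 per member in the shallowest library, and a median SE of 0.22, changes under 1.5-fold were mostly not detectable.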

Other observations

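Given here are 6 other clusters past the threshold, chosen after their values were seen. They were picked for what their genes do and stand for no group. Among falls, the cluster at Pdzk1ip1, the gene next to the stem cell factor Tal1, was at 49.2, 35.8 and 44.6 CPM per peak in the unconfined and 30.8, 17.3 and 18.2 in the confined libraries (log2 fold change -0.78, SE 0.23, adjusted p = 0.0174 by edgeR). The cluster in Smad3, a transducer of TGF-beta signals, was at 48.1, 33.0 and 37.4 against 28.7, 22.6 and 13.9 (-0.67, SE 0.21, adjusted p = 0.0253). At Vav1, the gene of a signalling protein of blood cells, it was at 44.5, 38.1 and 47.6 against 31.0, 24.5 and 26.7 (-0.55, SE 0.19, adjusted p = 0.0432). The groups did not overlap at any of these 3. Without unconfined library 3 or confined library 2 each lost its call, and those in Smad3 and Vav1 also without unconfined library 1 or confined library 3.

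Among rises, the cluster at Itgb2, which encodes the beta chain of leukocyte integrins, was at 14.1, 21.4 and 17.6 against 25.1, 30.3 and 33.4 CPM per peak (log2 fold change 0.75, SE 0.23, adjusted p = 0.0229). The one in Itgav, the gene of an integrin alpha chain that binds matrix proteins, was at 15.2, 16.1 and 13.9 against 18.0, 24.8 and 31.2 (0.74, SE 0.24, adjusted p = 0.0304). The one at Il4ra and Il21r, a pair of cytokine receptor genes, was at 15.6, 16.0 and 13.98 against 19.4, 23.2 and 28.3 (0.68, SE 0.23, adjusted p = 0.0365). Groups were separate at all 3, and their calls were lost without any of at least 4 single libraries, among them unconfined libraries 1 and 3 and confined libraries 2 and 3. With the first confined library alone their log2 fold changes were 0.28, 0.08 and 0.18.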
